A study of Oryza sativa with 2 samples.

Results

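The protein phosphatases 2C described here are the rice genes listed under the name PP2C and a number. Members were taken from the gene annotation of the array: a probe set, the group of short probes that reads a transcript, was a member where its single annotated gene has a symbol or synonym made of PP2C followed by a number, with or without a leading Os. Of 17905 genes read by a probe set of their own, 55 were members, on 72 of 22436 probe sets. The gene table used for names lists 60 such genes, and the other 5 are not analysed here. The rule uses names and no signal value, but the family was picked for description with earlier results of these data known.

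Leaf RNA was compared between recombinant inbred lines (RILs), which descend from a cross and are made nearly uniform by repeated inbreeding. The yellow group is labelled F9Y RILs, mutant, yellow leaf tip, vegetative stage, and the green group F9G RILs, normal green, green leaf tip, vegetative stage; the study follows leaf-tip yellowing in connection with SA0420, an early-senescing rice mutant. The sources used here do not say how many plants or lines went into each RNA, nor the age of the plants, and the labels name both leaves and leaf tips. Each group had 1 array with no replicate, so there is no test, and every difference below is between these arrays, not between the conditions. Rubisco activase (RCA), an abundant leaf transcript, was in the brightest probe sets on both arrays, at or above the 99.4th percentile, with signals of 16764 to 27758 in yellow leaf tip and 21307 to 31145 in green. SGR, which promotes chlorophyll breakdown, had a log2 difference of 2.48 between yellow leaf tip and green. Of the other leaf transcripts looked at, RBCS had probe sets down to the 46.9th percentile and a mean log2 difference of -0.50, and PSAH had -0.75.

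Protein phosphatases 2C are metal-dependent enzymes that remove phosphate from serine and threonine residues, and act as single subunits. The best known plant members form clade A. In the absence of the hormone abscisic acid they hold SnRK2 kinases inactive, and hormone-bound receptors of the PYL family block the phosphatases, which frees the kinases to act on transcription factors and channels. In many plants, genes of clade A phosphatases are themselves induced by abscisic acid and by water loss. Other clades act on mitogen-activated protein kinases, on receptor kinases or in growth control.

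Of the 55 members, 51 had at least 1 probe set with a mean signal at or above 86.0, the median of that mean over all rice probe sets, and only these 51 are compared as genes. Each difference is the log2 of signal plus 22.6 in yellow leaf tip minus the same in green, centred on the median of all kept probe sets, and a gene's value is the mean over its kept probe sets. A positive value means a higher signal in yellow leaf tip, and a fold is the same difference written without the logarithm. The count of higher and of lower genes takes those with a difference of 1 or more in size, which is a fold of 2. In leaf RNA, a lower signal from fewer cells of a type and one from less RNA per cell cannot be told apart.

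By that count 5 of the 51 members had a higher signal in yellow leaf tip (PP2C68, PP2C51, PP2C48, PP2C16 and PP2C06) and none had a lower one. PP2C51 passed the signal limit through its yellow leaf tip value alone. Over all 14697 kept genes, 5.57% were higher and 3.18% were lower. The members' share of higher genes was 9.80%, the median difference was 0.05 against 0.08 over all kept genes, and 27 members lay above 0 and 24 below. The middle of the members lay between -0.23 and 0.45 (25th and 75th percentile), and that of all kept genes between -0.25 and 0.39. Most members therefore had a similar signal on both arrays: 35 of 51 lay within 0.5 of 0 (68.6%), and so did 68.2% of all kept genes.

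**Figure D1:**
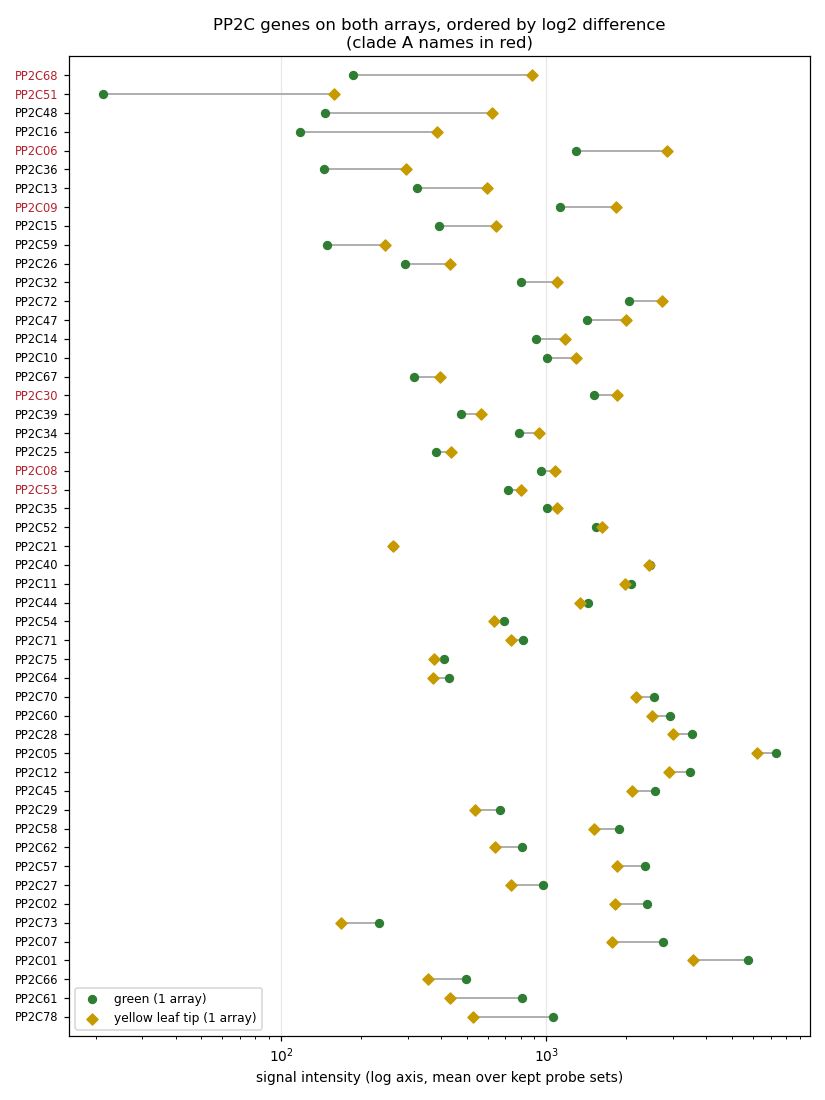
Signal intensity of the 51 kept PP2C genes on a log axis, green circles for the green array and yellow diamonds for the yellow leaf tip array, 1 array each, ordered from the highest log2 difference at the top; names of clade A members are red. The widest gaps are at the top, from PP2C68 to PP2C06, and no gap at the bottom reaches 2-fold on the centred scale.

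Clade A of rice is commonly listed as 10 genes, and 7 of them were on the array as members, all 7 kept. All 7 had a difference above 0, from 0.21 to 2.16 with a median of 0.74, and 3 of them were higher by at least 2-fold. PP2C51, among these 3, passed the signal limit through its yellow leaf tip value alone. It therefore adds no separate support to either count or to the median. The differences of the other clade A members were 2.16, 1.17, 0.74, 0.34, 0.22 and 0.21. Among all kept genes 56.6% lay above 0 and 5.57% were higher by 2-fold. Of the 44 kept members outside this clade, 2 were higher by at least 2-fold, 20 lay above 0 and the median was -0.06. With 1 array per group this contrast between the clades is a description with no test. PP2C37, PP2C49 and PP2C50, the other clade A numbers, are not analysed here.

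PP2C68, also listed as PP108 and SIPP2C1, is a clade A phosphatase known in rice from work on stress and panicle development. Its signal was 883 in yellow leaf tip and 187 in green, a log2 difference of 2.16 and a fold of 4.48. This was the widest difference of any member, on 1 probe set whose name does not mark cross-hybridization. Both signals were above every bacterial control on their array, where the 42 probe sets for Bacillus genes, which leaf RNA should not bind, read up to 56.9 in yellow leaf tip and 97.6 in green.

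PP2C51, known in rice for promoting seed germination through a bZIP factor, had a signal of 157 in yellow leaf tip and 21.3 in green (log2 difference 2.09). The green value lies below the constant of 22.6 and inside the range of the bacterial controls, so the size of this difference is not settled: it ran from 1.21 to 2.94 over the settings tried. A further probe set of PP2C51, below the signal limit, read 32.8 in yellow leaf tip and 8.48 in green. Both of these values lie inside the range of the controls, so no difference can be read from them. The kept probe set had a mean of 89.4, just above the limit, and it was reached through the yellow leaf tip value alone.

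PP2C06, listed as ABIL1, is named for its likeness to the ABI phosphatases of Arabidopsis, found through mutants insensitive to abscisic acid. It was the brightest of the higher members, with 2848 in yellow leaf tip and 1298 in green, a log2 difference of 1.17 and a fold of 2.25. PP2C09, a drought-responsive clade A gene in rice, read 1826 in yellow leaf tip and 1122 in green. Its difference of 0.74 stayed under 2-fold, on a probe set whose name ending marks several transcripts of a gene. The remaining clade A genes lay closer to 0. PP2C30, whose rice protein binds the receptor PYL5 (RCAR5) and the kinase SAPK2, had 1853 in yellow leaf tip and 1514 in green (0.34). PP2C08 had 1074 in yellow leaf tip and 950.0 in green (0.22). PP2C53, listed as ABIL2, had 804 in yellow leaf tip and 719 in green, a difference of 0.21. The last 3 are smaller than the disagreement among probe sets that read a common gene, 0.46 (pooled SD of the log2 difference over 2215 genes with several kept probe sets), which says nothing of plants or arrays.

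**Figure D2:**
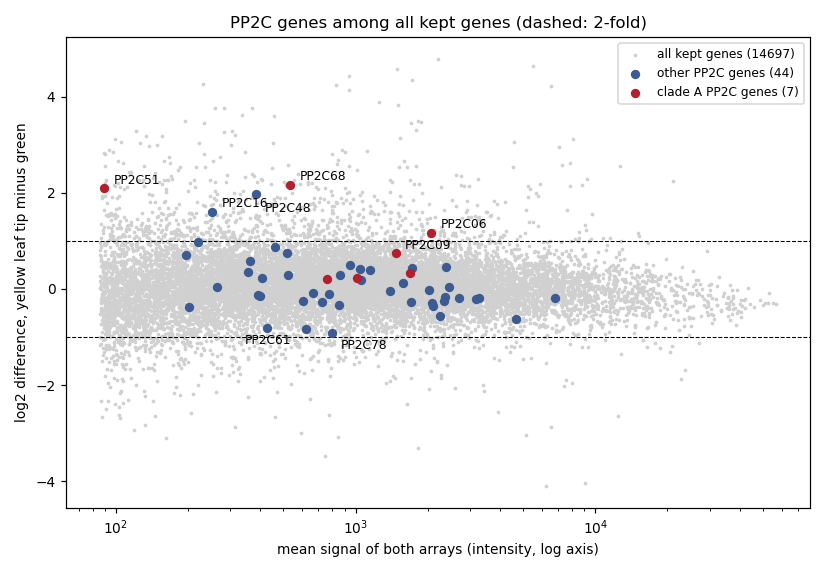
Log2 difference, yellow leaf tip minus green, against the mean signal of both arrays on a log axis, for all 14697 kept genes in grey, 7 clade A members in red and 44 other members in blue; dashed lines mark 2-fold. The red points all lie above 0, and PP2C51 sits at the left edge, near the signal limit. It passed that limit through its yellow leaf tip value alone.

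Outside clade A, PP2C48 and PP2C16 were higher in yellow leaf tip. PP2C48 had a signal of 621 in yellow leaf tip and 147 in green, a log2 difference of 1.98 and a fold of 3.94. Of its 2 further probe sets, both below the signal limit, the first read 121 against 19.3 (1.83) and the other 25.8 against 10.8 (0.58). The last is inside the range of the bacterial controls on both arrays and may cross-hybridize by its name, so no difference can be read from it. The green value of the first further probe set, 19.3, also lies inside the range of the controls and below the constant added. The size of its difference is therefore not settled, though its direction was that of the kept probe set. PP2C16 had 387 in yellow leaf tip and 118 in green (1.60, a fold of 3.03) on a single probe set. PP2C36 came next and just missed the count, with 296 in yellow leaf tip and 145 in green (0.97). PP2C13, listed as DCW11 and known in rice from work on cytoplasmic male sterility, read 595 in yellow leaf tip and 325 in green (0.88).

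For 4 further members with roles studied in rice, the signals of the arrays were as follows. PP2C35 is XB15, which acts on the immune receptor kinase XA21, and it had 1098 in yellow leaf tip and 1001 in green (0.18). PP2C34, listed as BIPP2C2, a name given for induction by the defence activator benzothiadiazole, had 935 in yellow leaf tip and 787 in green (0.29). PP2C27, which acts in cold signalling, had 735 in yellow leaf tip and 968 in green (-0.34). PP2C40, also called PP65, a gene studied for osmotic stress, was level at 2431 in yellow leaf tip and 2455 in green (0.04). All 4 lay within that disagreement of 0.46.

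The 6 members with the brightest mean over their kept probe sets had differences from -0.63 to 0.04. Brightness depends on the probes as well as on the transcript, so it does not rank the genes by level. PP2C05 had 6209 in yellow leaf tip and 7366 in green (-0.20). PP2C01 stood out from the other bright members, with 3583 in yellow leaf tip and 5740 in green, a log2 difference of -0.63. PP2C28 (2988 in yellow leaf tip, 3532 in green), PP2C12 (2897 and 3468) and PP2C60 (2490 and 2930) had differences of -0.19, -0.21 and -0.18. With PP2C40 these are the 6, and 5 of them lay below 0. Single probe sets of 2 other members, described further on, were brighter than that of PP2C40: PP2C07 with 2024 in yellow leaf tip and 3370 in green (-0.68), and PP2C47 with 3208 and 2168 (0.61). This probe set of PP2C47 may cross-hybridize by its name, and the other kept one read 798 in yellow leaf tip and 687 in green (0.26).

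The median difference of the members was lower where the signal was brighter. In the dimmest tercile of kept genes by signal, under 449, the median of the 13 members was 0.36, against 0.04 for all kept genes there. In the middle tercile it was 0.21 for 19 members against 0.13 for all kept genes. In the brightest tercile, above 1417, it was -0.18 for 19 members against 0.04 for all kept genes. Of the higher members 3 were in the dimmest tercile, where 8.27% of all kept genes were higher and 5.57% lower. PP2C51, among these 3 and in the median of 0.36, passed the signal limit through its yellow leaf tip value alone. The middle tercile held 1, with 4.88% of all kept genes higher and 2.22% lower, and the brightest held 1, with 3.57% higher and 1.76% lower. The part of signal level in the members' differences was not tested.

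At the low end, no member reached 2-fold. PP2C78 came closest, with 529 in yellow leaf tip and 1063 in green (-0.93), and it passed 2-fold after quantile normalization (-1.02) and after levelling by loess on signal (-1.03). PP2C61 had 431 in yellow leaf tip and 811 in green (-0.83). PP2C66 had -0.82 as a mean, but its 3 kept probe sets disagreed by 1.93. The first of them read 442 in yellow leaf tip and 476 in green (-0.05), the second 613 and 861 (-0.43), and the last 20.2 and 152.6 (-1.98). The low mean of PP2C66 therefore came from the last probe set, whose yellow leaf tip signal lies inside the range of the bacterial controls. With the signal limit at the 75th percentile that probe set drops out and the value is -0.31, while with no constant added it is -1.12.

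**Figure D3:**
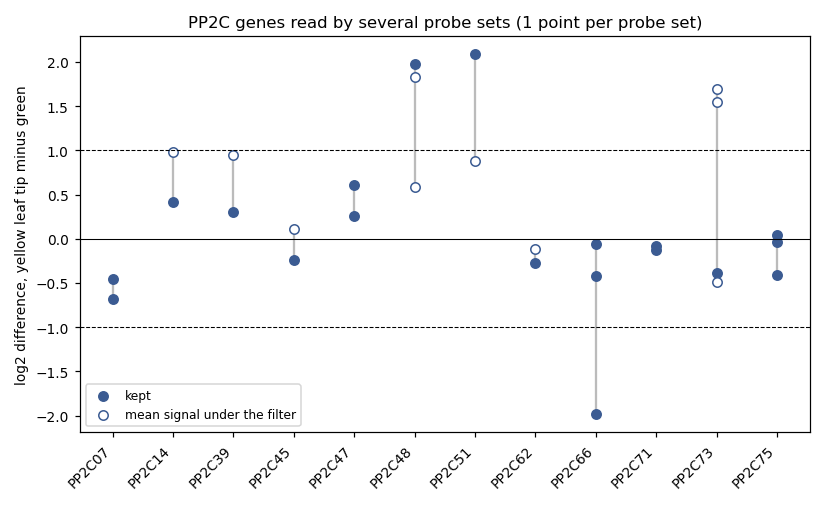
Log2 difference, yellow leaf tip minus green, for the 12 PP2C genes read by several probe sets, 1 point per probe set, filled where the mean signal passed the limit and open where it did not; dashed lines mark 2-fold. PP2C66 and PP2C73 span the widest ranges, and the filled point of PP2C48 lies near 2.

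Several probe sets read 12 members, and for 5 of these more than 1 passed the signal limit. Apart from PP2C66, they were close to each other. The probe sets of PP2C07 differed by 0.22 around a mean of -0.57, and those of PP2C47 by 0.35 around 0.43. Those of PP2C71 differed by 0.04 around -0.10, and those of PP2C75 by 0.45 around -0.13. PP2C73 shows what the limit leaves out. Its kept probe set had 168 in yellow leaf tip and 235 in green (-0.39), while 2 dimmer ones that may cross-hybridize read 105 against 22.7 (1.55) and 96.6 against 15.5 (1.70), and the fourth read 3.46 against 15.3, both inside the range of the controls. The green values of the 2 dimmer ones, 22.7 and 15.5, also lie inside that range, so the size of their differences is not settled. Without a signal limit the mean of PP2C73 was 0.63, so it has no settled direction. PP2C14, PP2C39, PP2C45 and PP2C62 each had 1 kept probe set, with differences of 0.41, 0.30, -0.24 and -0.28. That of PP2C39 may cross-hybridize by its name. Below the limit, a further probe set of PP2C14 read 61.1 in yellow leaf tip and 21.1 in green (0.99), and that of PP2C39 85.5 and 35.5 (0.95). Both green values lie inside the range of the controls, so the size of these differences is not settled. The further probe sets of PP2C45 and PP2C62 lie inside that range on both arrays.

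The other 19 kept members all lay under 2-fold, from -0.35 for PP2C02 to 0.74 for PP2C15, with 10 above 0 and 9 below. PP2C15 had 645 in yellow leaf tip and 392 in green, and PP2C59 had 246 and 149 (0.70). PP2C26 read 433 in yellow leaf tip and 293 in green (0.58), and PP2C72 read 2730 and 2045 (0.46). PP2C21 was as good as equal, at 263.7 and 264.5 (0.05). Below 0, PP2C57 had 1839 in yellow leaf tip and 2350 in green (-0.30), and PP2C58 had 1510 and 1884 (-0.27).

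For 4 members no probe set reached the signal limit. PP2C18 read 9.25 in yellow leaf tip and 24.99 in green, and PP2C31 read 4.03 and 5.13. PP2C33 read 55.0 in yellow leaf tip and 69.3 in green, and PP2C69 read 41.2 and 60.3. All of these lie inside the range of the bacterial controls, so no difference can be read from them.

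The genes next to the higher members on the chromosome were looked at for the same difference, taking up to 4 protein-coding genes on either side. Of these neighbours 15 were measured, and none was higher or lower by 2-fold. Among all kept genes 8.76% were past 2-fold in either direction, so a count of 0 in 15 is near that share. Their differences ran from -0.48 to 0.76, and the largest lay beside PP2C06. The 5 neighbours of PP2C51 ran from -0.44 to 0.09, and the 3 of PP2C68 from -0.18 to 0.11. PP2C16 had 1 measured neighbour, at 0.05, and the 2 of PP2C48 had 0.28 and 0.48.

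Other genes of abscisic acid signalling were matched by symbol or synonym in 5 groups, 23 genes of which 20 were measured. Of these, 6 were higher by at least 2-fold and 1 was lower, beside 5.57% higher and 3.18% lower among all kept genes. The dehydration genes RAB16B and LEA19, both among the 6, passed the signal limit through the yellow leaf tip value alone. RAB21, also among them, had a mean green signal under that limit. The count was 5 when probe sets that may cross-hybridize by their name were removed. The groups are small and several genes of the pathway are not analysed here under these names, so the counts describe the genes listed and no more.

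Upstream of the phosphatases, the receptor matched was PYL5, which had 3618 in yellow leaf tip and 4496 in green (-0.26). ZEP, which encodes zeaxanthin epoxidase of abscisic acid synthesis, had 2685 in yellow leaf tip and 1074 in green (1.35). ABA8OX1, a hydroxylase that breaks the hormone down, had 1734 in yellow leaf tip and 3759 in green (-1.06), and ABA8OX2 had 884 and 990.4 (-0.11). ZEP and ABA8OX1 thus differed in opposite directions.

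Of the 10 SnRK2 kinases, listed as SAPK1 to SAPK10 and known as targets of clade A phosphatases, 1 was higher by at least 2-fold, none was lower, and the median was 0.03. A count of 1 in 10 is near the 5.57% of all kept genes that were higher. SAPK3 had 4395 in yellow leaf tip and 1435 in green (1.65). The next highest were SAPK4 at 0.72 and SAPK7 at 0.58, and the lowest were SAPK2 at -0.41, SAPK10 at -0.35 and SAPK9 at -0.28. SAPK8, SAPK9 and SAPK10, the kinases of the subgroup most strongly activated by abscisic acid, had 0.09, -0.28 and -0.35.

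Downstream, TRAB1, a bZIP factor that the kinases phosphorylate, had 1507 in yellow leaf tip and 371 in green (2.01). BZIP23 had 2924 in yellow leaf tip and 1879 in green (0.68), and VP1, below the signal limit, had 51.7 and 109.5. Among dehydration genes that abscisic acid induces, RAB21 had 422 in yellow leaf tip and 73.5 in green as means of 2 probe sets (2.26). The green signal of RAB21 is no brighter than the brightest bacterial control, and under the settings tried the difference lay between 1.70 and 2.57. RAB16B had 257 and 9.24 (3.19) and LEA19 had 205 and 5.84 (3.05), with green signals below the constant of 22.6, and over the settings their differences ran from 1.86 to 4.85 and from 1.68 to 5.19. Both passed the signal limit through the yellow leaf tip value alone. The probe set of LEA19 may cross-hybridize by its name, as may a probe set of RAB21. RAB16C, a neighbour of RAB16B in the same gene cluster, was level at 776 and 775 (0.05). Below the signal limit, RAB16D had 47.7 in yellow leaf tip and 70.1 in green, and RAB25 had 37.3 and 88.0. All 4 of these values lie inside the range of the bacterial controls.

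**Figure D4:**
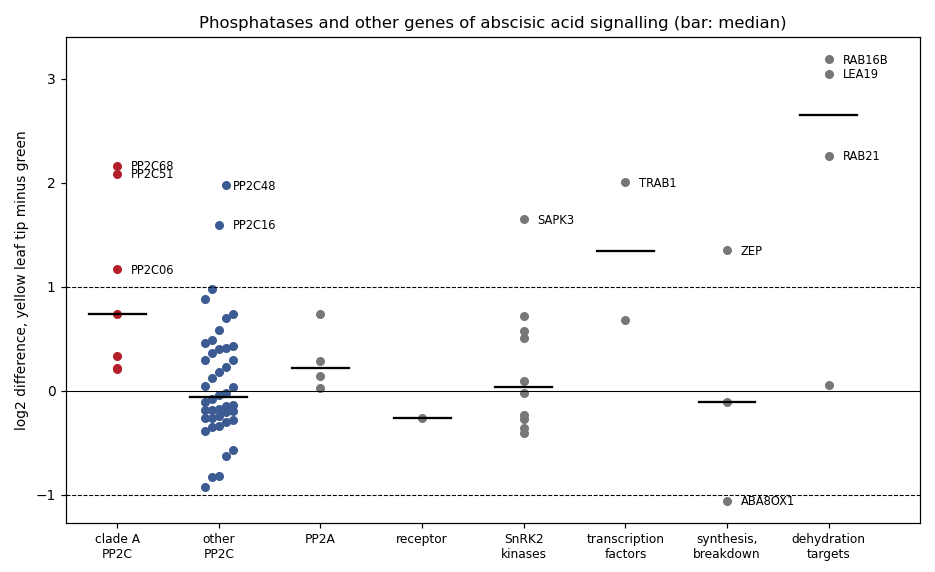
Log2 difference, yellow leaf tip minus green, of each kept gene in clade A (red), the other PP2C genes (blue), the PP2A phosphatases and the groups of abscisic acid signalling (grey); bars are medians, dashed lines mark 2-fold, and names are given at 2-fold or more. The points of clade A and of the 4 dehydration genes that passed the signal limit lie above 0, while the SnRK2 kinases lie on both sides. PP2C51, RAB16B and LEA19 passed that limit through the yellow leaf tip value alone, so their place above 0 is not independent of it. RAB16C, at 0.05, changed sign over the processing settings.

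For a phosphatase family of another structure, 4 catalytic subunit genes of PP2A were matched. None differed by 2-fold, beside 8.76% of all kept genes, so a count of 0 in 4 is near that share. Their median was 0.21. PP2A2 was the highest, with 3974 in yellow leaf tip and 2461 in green (0.74). PP2A1, PP2A4 and PP2A3 had 0.29, 0.14 and 0.03. The probe sets of PP2A4 disagreed by 0.54 and those of PP2A3 by 0.52, and a probe set of PP2A3 may cross-hybridize by its name.

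Over the 9 other settings for scaling, signal limit, constant and probe choice, PP2C68 and PP2C06 had a difference above 1 each time, from 1.86 to 2.29 and from 1.07 to 1.21. PP2C48 ran from 1.5 to 2.14 and PP2C16 from 1.25 to 1.77, and both, like PP2C51, fell under the signal limit when it was set at the 75th percentile. PP2C36 crossed 2-fold in 4 of the settings. The measured clade A members lay above 0 under each of these settings, which reprocess the same arrays. Where PP2C51 passed a signal limit, it did so through its yellow leaf tip value alone. Its place above 0 is then not independent of that limit.

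**Figure D5:**
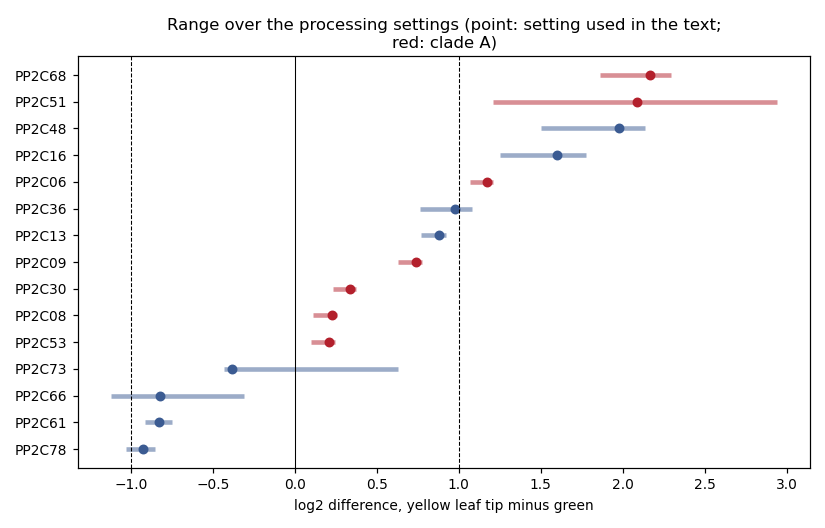
Range of each member's log2 difference between yellow leaf tip and green over the processing settings for the clade A members (red) and the other members farthest from 0 or least settled (blue); the point is the value used in the text and dashed lines mark 2-fold. PP2C51 has the longest bar, from 1.21 to 2.94, and the bar of PP2C73 crosses 0.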

How the data were processed

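Biotin-labelled cRNA from leaf total RNA was hybridised to single-colour oligonucleotide arrays, 1 per group, per the labels' protocols. The authors deposited signal intensity, not log-transformed, for 57381 probe sets, and how they scaled it is not stated in these sources. These intensities had a mean of 500.1 on each array without the lowest and highest 2%. The 123 control probe sets were left out. From there, 22.6 (the 25th percentile of all values) was added before log2, probe sets with a mean signal under 86.0 were left out (28629 of 57258 stayed), and the difference was centred, a shift of -0.05.

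Names came from the platform annotation and the RefSeq gene table of assembly ASM3414082v1, the latter also for gene order. Clade A was taken as PP2C numbers 6, 8, 9, 30, 37, 49, 50, 51, 53 and 68. TRAB1 also matched the synthesis group through its synonym aba1 and was counted as a transcription factor only. The members and gene lists were chosen with earlier results of these data known. Genes were named by rule: members past 2-fold, all of clade A, the 6 brightest, the 4 highest and 4 lowest, those whose probe sets disagreed by over 1, those at the edge of the signal limit, and up to 3 highest and 3 lowest of each pathway group. PP2C13, PP2C35, PP2C34, PP2C27, PP2A genes and the members read by several probe sets, among other members, were added after their values were seen. No sequences of the members were used here. The steps were tested on simulated data with equal log2 noise at every signal level, which cannot speak to members near the signal limit. Python 3.11.15, numpy 2.4.6, pandas 2.3.3 and statsmodels 0.14.6 were used. The number of arrays limits the precision, and no test was possible.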

Additional observations from a re-analysis of the deposited data

How the results depend on the processing

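Besides the settings of the text, the difference was left without centring, levelled by quantile normalization or by loess on signal (fraction 0.3), or taken without a pseudocount or with the 50th percentile as pseudocount. The signal limit was dropped or raised to the 75th percentile, probe sets whose name endings mark several transcripts or genes were removed, genes were read by their brightest probe set, and the log2 threshold was raised to 2. With the limit at the 75th percentile 2 of 40 PP2C genes were higher, and so were 3.79% of 10050 kept genes. The PP2C median was -0.10 against 0.02 over all kept genes, and the clade A median was 0.47 over 6 members. Under this limit 3 genes of abscisic acid signalling were higher. It leaves out dim genes, PP2C51 among them, and the centring shift was 0.02 in place of -0.05. The part of each in these values was not tested. At the threshold of 2, 2 PP2C genes were higher and 0 pathway genes lower, beside 1.12% higher and 0.33% lower among all kept genes. The count of lower PP2C genes was 1 after quantile normalization and loess (PP2C78) and without a pseudocount (PP2C66), and the cause was not tested. Among all kept genes 3.11%, 2.96% and 4.19% were lower under these settings. The number of higher PP2C genes was 5 or 6 under the other alternatives, where 3.86% to 7.68% of all kept genes were higher. The PP2C median fell just below 0 without centring, so it has no settled sign, and PP2C11, PP2C21, PP2C40, PP2C73 and PP2C75 changed sign in at least 1 setting. Of 165 repeats for 19 named members, 157 moved by less than 0.46 and 8 by more, all in PP2C48, PP2C51, PP2C66 and PP2C73. No paired analysis was possible because each group had 1 array.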
